A study of Mus musculus with 62 samples.

Results

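The neocortex of mice injected with cachectic melanoma cells (CAC) was compared with that of mice injected with non-cachectic melanoma cells (NCAC) 8 weeks after injection. The 12 libraries, 7 CAC and 5 NCAC, were taken by their labels from the 62 libraries of a bulk RNA sequencing series that followed CAC, NCAC and mock-injected mice at 2, 4, 6 and 8 weeks. The mice were female and labelled 2 months old, and all 12 libraries were read on lane 4 of the same sequencer type (Illumina NovaSeq, TruSeq stranded mRNA kit). Both groups carried melanoma cells, so the comparison asks what the neocortex of a cachectic tumour host holds that the neocortex of another tumour host does not. The labels do not name the melanoma lines or give body weight or tumour size per mouse. They give the strain as C57BL6/J, while the design text of the series speaks of nude mice, and the strain is left undecided here. The protocol text, against the sample labels, also speaks of LLC cells and of a time point at 3 weeks, and the groups here follow the sample labels. The labels call the libraries biological replicates without tying each to a mouse, so p-values rest on the spread between libraries. For tests between groups, that spread was estimated within the 12 groups of all 62 libraries, not from the 12 compared libraries alone.

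Cachexia is the loss of muscle and fat that accompanies many cancers, often with inflammation, loss of appetite and raised glucocorticoid hormones. Circulating interleukins and bacterial products reach the brain through the cells of its vessel walls, which answer with acute phase genes such as Lcn2 and Lrg1. Glucocorticoids cross into the brain, bind their receptor in neurons, glia and endothelium, and switch on genes such as Fkbp5, whose product dampens the receptor in turn.

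Values are TPM as deposited, a gene's length-corrected share of all transcripts in its library. The tested scale is log2(TPM + 1), which understates the change of genes at low TPM. A gene counts as called, and as risen or fallen, where limma gave a Benjamini-Hochberg adjusted p under 0.05 over the 15115 genes tested. TPM does not give a library's depth. The labelled tissue was checked by marker lists: 14 of 14 excitatory neuron genes were measured, with a summed 2817 to 3304 TPM in CAC and 2723 to 3074 TPM in NCAC. Striatum markers (11 genes) summed to 1026 to 1222 TPM in CAC and 1059 to 1269 TPM in NCAC. These lists therefore do not settle which other tissue the pieces held. The 6 pigment cell genes of the mouse (Pmel, Mlana, Tyr, Tyrp1, Dct and Slc45a2) summed to 0.711 to 2.11 TPM in CAC and 0.742 to 2.12 TPM in NCAC, and 0 of 6 reached the level needed for a test. Because the melanoma lines are not named, these sums do not measure tumour cell content.

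Some libraries stand apart from their groups in ways that touch the results. CAC replicate 3 had glucocorticoid-responsive genes at the NCAC level, interferon response genes 0.83 and MHC genes 0.99 above the NCAC mean (mean log2 difference), and erythroid genes 4.13 above it. NCAC replicate 3 had the highest glucocorticoid-responsive genes of its group, 0.26 above the group mean. Mock replicate 5 had interferon response genes 1.62, MHC genes 3.19, complement genes 1.63 and reactive astrocyte genes 0.82 above the NCAC mean. Choroid plexus genes were 1.51 to 1.65 below the NCAC mean in CAC replicates 2, 3, 4 and 5 and 0.31 to 0.46 above it in CAC replicates 1, 6 and 7. Thalamus genes were 0.96 and olfactory genes 1.46 above it in CAC replicate 5. Choroid plexus markers summed to 71.7 to 2527 TPM in CAC and 185 to 2381 TPM in NCAC, and erythroid genes to 157 to 22529 TPM in CAC and 846 to 2425 TPM in NCAC. Of the choroid plexus genes 0 of 10 were called by limma (2 had an unadjusted p under 0.05), and of the erythroid genes 0 of 5 (0 unadjusted), and the part of these tissues in the results below was not tested.

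CAC and NCAC neocortex differed in 882 of 15115 genes, 5.84% of those tested. Of these, 643 were higher in CAC (4.25% of genes tested) and 239 were lower (1.58%). The median log2 difference over all genes was 0.05, and 67.2% of genes were above 0. After TMM scaling, which centres the libraries, the median was -0.002 and the calls were 407 higher and 433 lower, so the split between higher and lower calls depended on the scaling. Leaving out 1 library moved the count between 422 (without NCAC replicate 5) and 1660 (without CAC replicate 3). It was 1451 without NCAC replicate 3, 586 without CAC replicate 1, 532 without NCAC replicate 4 and 505 without CAC replicate 6. Fitted on these 12 libraries alone, without the other 50 to estimate the spread, 296 genes were called. In 216 genes (1.43% of those tested) the 2 groups did not overlap, 144 of them higher in CAC (0.953%) and 72 lower (0.476%).

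**Figure D1:**
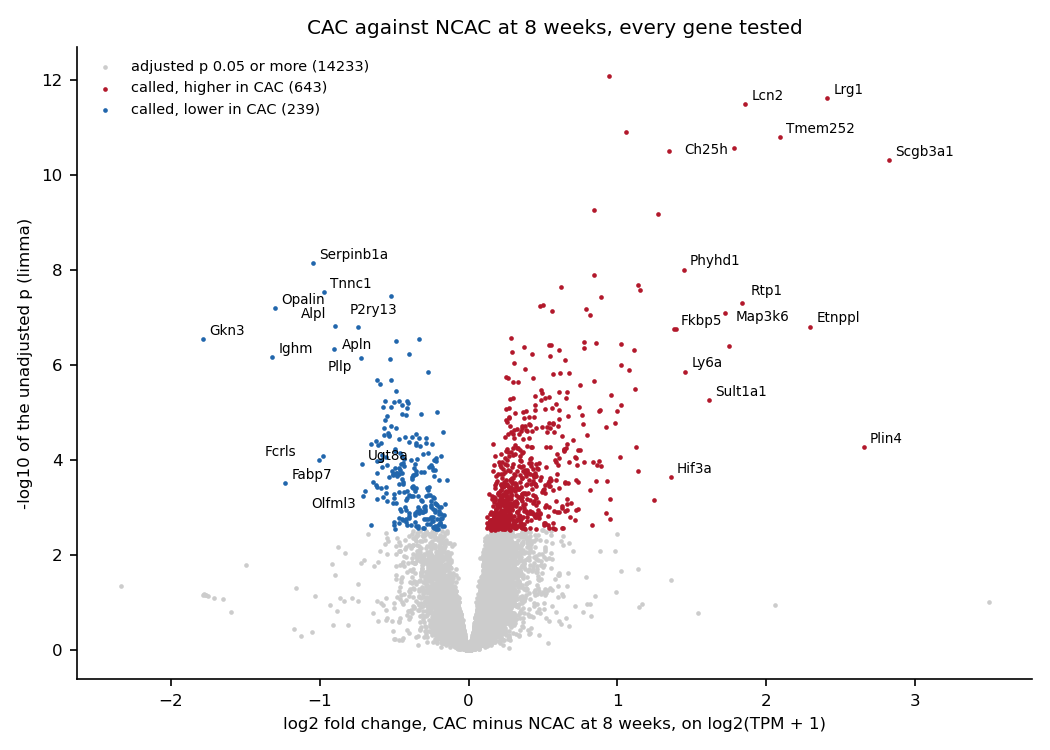
Each point is 1 of 15115 genes; the horizontal axis is the log2 fold change, CAC minus NCAC at 8 weeks, on log2(TPM + 1), and the vertical axis is -log10 of limma's unadjusted p. Red points are the 643 genes higher in CAC and blue points the 239 lower; Lrg1, Lcn2, Tmem252, Ch25h and Scgb3a1 lie at the upper right, and Gkn3 has the lowest log2 fold change among called genes.

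Acute phase genes and cytokine receptors were higher in CAC neocortex. This list and the others below were chosen with earlier results of these data known, so counts of members called are a description. Of 23 genes in the list, 18 were tested, 11 rose and 0 fell, where 4.25% of all genes rose. Lcn2, Ch25h and Il1b passed the filter on low levels only through CAC groups, their NCAC and mock means being below 1 TPM in every week. Without these 3, 9 of 15 rose, with a median log2 difference of 0.43 against 0.05 over all genes. The genes called were Lrg1, Lcn2, Ch25h, Osmr, Il1r1, Il6ra, Socs3, Cebpd, Stat3, Map3k8 and Tnfrsf1a. Tnf, Il6, Saa3, Hp and Ccl2 were too low to test.

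Lcn2, at chr2:32384633-32388252 on the minus strand (GENCODE vM21, GRCm38), encodes lipocalin 2, an iron-siderophore carrier and acute phase protein. Its CAC values ran from 1.99 through a median of 4.50 to 13.2 TPM, and its NCAC values were 0.962, 0.510, 0.582, 0.594 and 0.188 TPM. Every CAC library exceeded every NCAC library, and CAC replicate 3 was far above the other CAC libraries, of which the next highest held 4.68 TPM. CAC exceeded NCAC by a log2 difference of 1.86 (SE 0.21), and 1.64 without CAC replicate 3, given as a description because CAC alone brought the gene past the filter.

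Lrg1 encodes leucine-rich alpha-2-glycoprotein, an acute phase glycoprotein made in vessel walls and liver. It ranged from 5.12 (CAC replicate 3) through a median of 14.1 to 25.4 TPM in CAC, and was 1.82, 1.54, 1.99, 2.79 and 1.14 TPM in NCAC. The groups did not overlap, and CAC replicate 3 was the lowest CAC library here, where it had been the highest for Lcn2. Lrg1 differed by 2.41 on the log2 scale (SE 0.27, limma adjusted p = 1.62e-08).

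Ch25h, cholesterol 25-hydroxylase, makes an oxysterol with antiviral and immune signalling roles. It lay between 2.34 and 6.96 TPM in CAC with a median of 4.73, and at 0.623, 0.275, 1.08, 1.009 and 0.364 TPM in NCAC. The log2 difference was 1.78 (SE 0.21), again with no overlap and again a description.

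Receptors for interleukin 1 and for cytokines of the interleukin 6 family moved less and as evenly. Osmr, the oncostatin M receptor, held 2.11 to 3.48 TPM in CAC (median 2.71) and 1.11, 1.09, 1.13, 0.691 and 1.201 TPM in NCAC. Its log2 difference was 0.84 (SE 0.11, limma adjusted p = 9.2e-07). Il1r1, the signalling receptor for interleukin 1, held 3.23 (CAC replicate 3) to 5.55 TPM in CAC and 1.80 to 2.43 TPM in NCAC, a log2 difference of 0.84 (SE 0.13, limma adjusted p = 1.46e-05). Both groups were separate for both receptors, with CAC replicate 3 lowest for Il1r1. Il6ra, which binds interleukin 6, differed by 0.62 (limma adjusted p = 2.34e-05), while its signalling partner Il6st was not called.

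Socs3 and Cebpd, which such receptors can switch on, rose as well, and what raised them was not tested. Socs3, a feedback inhibitor of JAK-STAT signalling, held 4.08 to 7.45 TPM in CAC and 2.26 to 2.83 TPM in NCAC (log2 difference 0.82, SE 0.13, limma adjusted p = 5.09e-05). Cebpd, a transcription factor of the acute phase response, held 8.02 to 13.04 TPM in CAC (the highest in replicate 2) and 4.40, 1.76, 3.69, 4.23 and 4.94 TPM in NCAC (log2 difference 1.13, SE 0.26, limma adjusted p = 0.00407). The CAC libraries again lay above the NCAC libraries for both genes. The smaller differences of Stat3 (0.28), Map3k8 (0.43) and Tnfrsf1a (0.32) were called here, but Stat3 and Map3k8 lost the call without NCAC replicate 5, and Tnfrsf1a without NCAC replicate 4 and after TMM scaling.

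Reactive astrocyte genes divided into a called and an uncalled set. Of 12 tested members, 5 rose (Lcn2, Osmr, Cp, Serpina3n and Aspg) and 0 fell, where 4.25% of all genes rose. Without Lcn2 the count was 4 of 11 and the median 0.28. Serpina3n, a secreted protease inhibitor with close paralogs that may share its reads, held 52.98 to 88.2 TPM in CAC and 35.3 to 49.7 TPM in NCAC (log2 difference 0.64, SE 0.15, limma adjusted p = 0.00464). Gfap, the astrocyte intermediate filament, held 106 to 192 TPM in CAC with a median of 153, and 137, 138, 127, 103 and 118 TPM in NCAC. These groups overlapped, and the log2 difference of 0.32 (SE 0.20) was not called (limma adjusted p = 0.37). Vim, another filament of reactive astrocytes, was not called either (0.28, adjusted p = 0.24).

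Glucocorticoid-responsive genes rose in 6 of the 7 CAC libraries and stood at the NCAC level in CAC replicate 3. Of 22 members, all tested, 16 rose and 0 fell, where 4.25% of all genes rose. All 22 were above 0, as were 67.2% of all genes, with a median of 0.75. Per library, the mean log2 difference of the list from the NCAC mean was 1.26, 1.16, 0.03, 0.86, 0.71, 1.17 and 1.02 in CAC replicates 1 to 7. Without CAC replicate 3, 20 members were called and the median was 0.86. Leaving out other single libraries left 14 or more called. The cytokine list, by contrast, was 0.57 to 0.84 above the NCAC mean in all 7 CAC libraries, with 0.67 in CAC replicate 3. These means include Lcn2, Ch25h and Il1b, which passed the filter only through CAC groups, so they are a description. By the median over members, the cytokine list was 0.33 to 0.72 above the NCAC mean in CAC libraries. In CAC replicate 3 that median was 0.42, and it was -0.01 for the glucocorticoid list.

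Fkbp5, at chr17:28399094-28517527 on the minus strand (GENCODE vM21, GRCm38), encodes the co-chaperone FKBP51, which lowers the affinity of the glucocorticoid receptor for its hormone. It held 17.7 TPM in CAC replicate 3 and 36.1 to 68.4 TPM in the other CAC libraries, with a median of 51.4 over all 7. NCAC held 16.6, 16.1, 24.7, 14.97 and 13.6 TPM. CAC replicate 3 lay among the NCAC libraries, all other CAC libraries lay above them, and NCAC replicate 3 was the highest of its group. The log2 difference was 1.38 (SE 0.23, limma adjusted p = 8.4e-05) and 1.60 without CAC replicate 3 (adjusted p = 3.13e-07).

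Plin4, a coat protein of lipid droplets, had the widest range of the list. It was 1.90 TPM in CAC replicate 3, with a CAC median of 36.4 and a highest value of 50.4 TPM, against 2.10, 2.08, 9.27, 2.98 and 1.74 TPM in NCAC. Plin4 differed by 2.65 on the log2 scale (SE 0.60, limma adjusted p = 0.00402) and 3.18 without CAC replicate 3. Again CAC replicate 3 fell within the NCAC range and NCAC replicate 3 exceeded the rest of its group.

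Sult1a1, a sulfotransferase of phenols and hormones, ran from 11.3 (CAC replicate 3) through 50.4 to 72.3 TPM in CAC and was 11.6, 12.3, 25.9, 14.03 and 8.86 TPM in NCAC (log2 difference 1.61, SE 0.32, limma adjusted p = 0.000933). Map3k6, a stress-activated kinase, ran from 1.25 (CAC replicate 3) through 6.65 to 10.4 TPM and was 1.05, 0.872, 1.69, 1.48 and 0.824 TPM in NCAC (log2 difference 1.72, SE 0.28, limma adjusted p = 4.68e-05). Both genes repeated the order of Fkbp5, with overlap between the groups through CAC replicate 3 alone.

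The remaining called members included hormone-regulated kinases, metabolic switches and metallothioneins. Sgk1, a serum- and glucocorticoid-regulated kinase, held 65.1 (CAC replicate 3) to 116 TPM in CAC and 32.1 to 63.1 TPM in NCAC, with no overlap (log2 difference 1.02, SE 0.24, limma adjusted p = 0.00563). Ddit4, an inhibitor of mTORC1, held 67.8 to 142 TPM in CAC and 38.8 to 63.7 TPM in NCAC, also with no overlap (log2 difference 0.92, SE 0.20, limma adjusted p = 0.00209). For these 2 genes CAC replicate 3 lay just above the NCAC libraries rather than among them. Pdk4, which shuts off glucose oxidation, rose by 0.87, Arrdc2 by 0.96, Zbtb16 by 0.93, the cell cycle inhibitor Cdkn1a by 0.88 and Hif3a by 1.36. Mt1 and Mt2, metal-binding proteins whose similar sequences may share reads, rose by 0.57 and 0.54, and neither was called in the fit on these 12 libraries alone. Cdkn1a and Klf9 were not called in that fit either. The call of Nfkbia (0.58, adjusted p = 0.049) was lost in most alternatives.

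The 6 other members were not called: Tsc22d3 (0.54, adjusted p = 0.111), Per1 (0.62, adjusted p = 0.0709), Dusp1 (0.63, adjusted p = 0.273), Gpd1 (0.25), Nedd9 (0.21) and Fam107a (0.40). Without CAC replicate 3, Tsc22d3 (adjusted p = 0.0392) and Per1 (adjusted p = 0.0281) were called. Nr3c1, the glucocorticoid receptor itself, held 39.1 to 50.9 TPM in CAC and 38.4 to 52.4 TPM in NCAC, and its log2 difference of -0.06 (SE 0.07) was not called (limma adjusted p = 0.668).

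**Figure D2:**
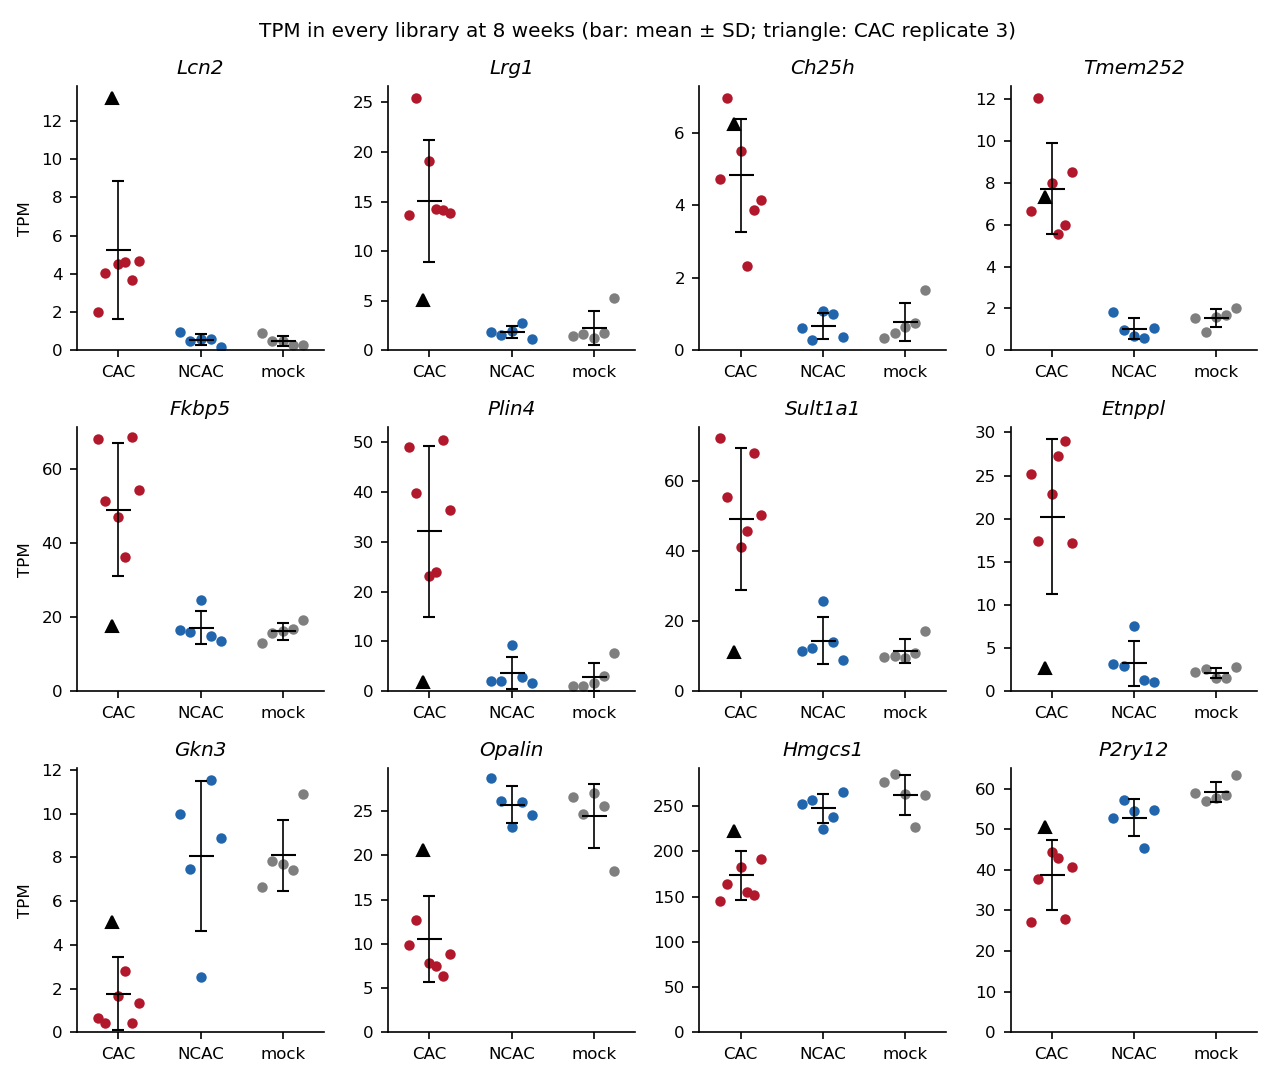
TPM of 12 genes in every library at 8 weeks, by group (CAC n = 7, NCAC n = 5, mock n = 5), with the mean ± SD; the triangle is CAC replicate 3. In the top row the 7 CAC libraries lie above NCAC, in the middle row CAC replicate 3 lies among the NCAC libraries, and in the bottom row it is the highest CAC library.

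Promoter sequences of 3 called genes show letters that these pathways are known to use near a start site. RefSeq promoter windows (GRCm38.p6, 250 bases before to 50 after the start, 300 bases in all, 5′ to 3′ on the gene's strand) were found for 11114 tested genes, some with several starts, 14277 windows in all. Each was searched on both strands for ACANNNTGT, a spaced pair of half-sites as the glucocorticoid receptor binds, and for TTGCNNAA, a C/EBP form. The first was in 4.31% and the second in 8.38% of all windows. The 15 called glucocorticoid-list genes with a window had 22 windows, and 4 of these, from 3 genes, held ACANNNTGT. The 9 called cytokine-list genes with a window had 10 windows, of which 3 held TTGCNNAA and 1 held ACANNNTGT, that of Lcn2. The windows of Lcn2 (chr2:32387690-32387989, minus strand), Map3k6 (chr4:133240568-133240867, plus strand) and Mt1 (chr8:94178839-94179138, plus strand) are shown with the matches in capitals. A match describes the letters only, and binding was not measured.
Lcn2: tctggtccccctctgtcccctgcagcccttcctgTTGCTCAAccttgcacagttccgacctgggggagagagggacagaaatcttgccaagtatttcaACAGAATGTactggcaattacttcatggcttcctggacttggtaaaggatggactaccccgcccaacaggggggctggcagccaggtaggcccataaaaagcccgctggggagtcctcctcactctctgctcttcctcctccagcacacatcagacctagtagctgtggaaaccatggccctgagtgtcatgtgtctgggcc
Map3k6: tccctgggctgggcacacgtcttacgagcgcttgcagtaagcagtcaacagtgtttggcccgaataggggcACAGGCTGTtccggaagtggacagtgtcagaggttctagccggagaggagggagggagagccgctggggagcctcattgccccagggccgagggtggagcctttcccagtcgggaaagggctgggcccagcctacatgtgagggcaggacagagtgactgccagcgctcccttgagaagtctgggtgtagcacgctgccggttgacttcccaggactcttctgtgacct
Mt1: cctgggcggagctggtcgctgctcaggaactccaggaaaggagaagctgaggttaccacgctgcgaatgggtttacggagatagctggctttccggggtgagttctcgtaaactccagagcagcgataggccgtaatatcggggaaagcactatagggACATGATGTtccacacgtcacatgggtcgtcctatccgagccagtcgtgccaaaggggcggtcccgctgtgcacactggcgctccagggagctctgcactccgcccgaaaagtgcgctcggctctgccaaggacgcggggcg
The Lcn2 window holds both forms, TTGCTCAA and ACAGAATGT, while Map3k6 holds ACAGGCTGT and Mt1 holds ACATGATGT. The RNA of these 3 genes differed in CAC replicate 3, which was the highest library for Lcn2 and the lowest CAC library for Map3k6 and Mt1.

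Several of the widest differences lay in genes outside both lists. Scgb3a1, a small secreted secretoglobin, ran from 0.723 (CAC replicate 3) through 6.92 to 25.7 TPM in CAC and was 0.469, 0.249, 0.121, 0.325 and 0 TPM in NCAC. The groups did not overlap, although CAC replicate 3 was near the NCAC libraries (log2 difference 2.82, SE 0.34). Scgb3a1 passed the filter on low levels only through CAC groups, so its values are a description. Tmem252, a transmembrane protein, held 5.53 to 12.03 TPM in CAC with a median of 7.32, and 1.85, 0.966, 0.708, 0.606 and 1.06 TPM in NCAC, with CAC replicate 3 at the CAC median (log2 difference 2.09, SE 0.25, limma adjusted p = 4.92e-08).

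Etnppl, an astrocyte enzyme that breaks down phosphoethanolamine, followed the order of Fkbp5. It ran from 2.74 (CAC replicate 3) through 22.8 to 29.0 TPM in CAC and was 3.15, 2.97, 7.62, 1.37 and 1.10 TPM in NCAC (log2 difference 2.29, SE 0.38, limma adjusted p = 7.85e-05). CAC replicate 3 lay within the NCAC range and NCAC replicate 3 above its group. Phyhd1, a dioxygenase, did the same with 7.32 (CAC replicate 3) to 35.9 TPM against 6.81, 7.30, 11.2, 6.79 and 6.75 TPM (log2 difference 1.45, SE 0.21, limma adjusted p = 1.24e-05). So did Rtp1, a receptor-transporting protein (1.84).

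The vessel wall showed genes moving both ways. Among 18 endothelial and blood-brain barrier genes, 6 rose (Ly6c1, Slc2a1, Esam, Abcb1a, Slco1a4 and Mfsd2a) and 1 fell (Kdr), where 4.25% of all genes rose and 1.58% fell, with a median of 0.15. After TMM scaling 4 rose and 1 fell, and without NCAC replicate 4 only 3 rose. Ly6c1, a surface protein of brain endothelium that has close paralogs, held 75.3 (CAC replicate 3) to 129 TPM in CAC and 51.5, 55.8, 52.1, 64.6 and 52.2 TPM in NCAC. The groups did not overlap, and the log2 difference was 0.94 (SE 0.10, limma adjusted p = 1.25e-08). Slc2a1, the glucose transporter GLUT1 of the barrier, held 105 (CAC replicate 3) to 170 TPM in CAC and 75.6 to 95.6 TPM in NCAC, also without overlap (log2 difference 0.65, SE 0.15, limma adjusted p = 0.00421). Summed TPM of the 18 genes was 488 to 698 in CAC and 438 to 484 in NCAC. In bulk tissue, more cells of a type and more RNA per cell cannot be told apart, here and for each cell type below.

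Ly6a, a surface antigen of endothelium that also answers interferon, held 29.1 to 40.5 TPM in CAC and 10.3, 16.2, 11.3, 10.1 and 12.5 TPM in NCAC, with no overlap (log2 difference 1.45, SE 0.27, limma adjusted p = 0.000347). Vwf, the von Willebrand factor of endothelium, held 7.04 (CAC replicate 3) to 17.04 TPM in CAC and 3.42 to 4.54 TPM in NCAC, and was named after its values were seen (log2 difference 1.27, SE 0.17, limma adjusted p = 1.01e-06). Both stood higher in mock replicate 5 than in the other mock libraries, at 64.98 TPM for Ly6a and 11.2 TPM for Vwf.

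A few arterial and angiogenic genes fell. In the arterial list 3 of 10 tested members fell (Gkn3, Alpl and Unc5b) and 0 rose, and in the angiogenic and hypoxia list 2 of 10 fell (Apln and Vegfa) and 0 rose. Of all genes 1.58% fell. The list medians were -0.13 and 0.03, the second turning to -0.02 after TMM scaling, and 6 of the 10 angiogenic members lay above 0. Gkn3, a secreted gastrokine found in arterial endothelium of mouse brain, ran from 0.422 through 1.33 to 5.05 TPM in CAC (the highest in replicate 3) and was 9.99, 7.47, 2.55, 11.52 and 8.87 TPM in NCAC. The groups overlapped through CAC replicates 3 and 5 and NCAC replicate 3. The log2 difference was -1.78 (SE 0.30, limma adjusted p = 0.000124), the lowest among called genes.

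Apln, the ligand apelin of growing vessels, ran from 7.95 through 10.5 to 19.7 TPM in CAC (the highest in replicate 3) and was 27.7, 19.4, 13.4, 23.2 and 30.5 TPM in NCAC (log2 difference -0.91, SE 0.16, limma adjusted p = 0.000153). Vegfa, the main growth factor of endothelium, ran from 22.2 through 28.2 to 45.2 TPM (the highest in replicate 3) against 41.05, 46.6, 34.3, 40.2 and 52.3 TPM (log2 difference -0.57, SE 0.12, limma adjusted p = 0.00213). Its receptor Kdr differed by -0.55, a call lost without NCAC replicate 5. Alpl, an alkaline phosphatase of vessel walls, differed by -0.90 (limma adjusted p = 7.85e-05), with 7.69 TPM in CAC replicate 3 and 4.61 TPM or less in the other CAC libraries. For all 4 genes CAC replicate 3 was nearest to NCAC. Vegfa and Kdr were not called in the fit on these 12 libraries alone, nor was Unc5b, which lost its call without any of 6 single libraries.

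Cholesterol synthesis genes were lower in CAC. Of 20 members tested, 10 fell and 0 rose, where 1.58% of all genes fell, with a median of -0.22, and 18 were below 0. The 10 were Hmgcs1, Dhcr7, Idi1, Msmo1, Mvd, Sqle, Acat2, Nsdhl, Cyp51 and Sc5d, which span the pathway from its first steps to its last. Leaving out 1 library gave 8 to 11 lower, and TMM scaling gave 12. The groups did not overlap for 3 members, Hmgcs1, Acat2 and Mvd, against 0.476% of all genes tested.

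Hmgcs1, at chr13:119690379-119708260 on the plus strand (GENCODE vM21, GRCm38), encodes a synthase early in the pathway. It ran from 145 through 163 to 222 TPM in CAC (the highest in replicate 3) and was 252, 256, 225, 238 and 265 TPM in NCAC. Hmgcs1 differed by -0.52 on the log2 scale (SE 0.08, limma adjusted p = 2.94e-05), with CAC replicate 3 just below the lowest NCAC library. Dhcr7, which makes cholesterol in the final step of a branch, ran from 19.01 through 20.2 to 26.6 TPM (the highest in replicate 3) against 26.99, 30.5, 24.7, 28.8 and 30.03 TPM, with overlap through CAC replicate 3 (log2 difference -0.40, SE 0.07, limma adjusted p = 0.000178). Idi1 differed by -0.46, Mvd by -0.44 and Msmo1 by -0.41.

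Srebf2, the transcription factor of the pathway, held 94.4 to 126 TPM in CAC and 112 to 134 TPM in NCAC and was not called (log2 difference -0.15, SE 0.07, limma adjusted p = 0.182). In the fatty acid synthesis list 4 of 13 members fell (Fads1, Me1, Elovl7 and Elovl5) and 0 rose, against the same 1.58%, but 0 were called lower without NCAC replicate 5 and 6 without CAC replicate 3.

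The promoters of Hmgcs1 (chr13:119690101-119690400, plus strand), Msmo1 (chr8:64733529-64733828, minus strand) and Nsdhl (chrX:72918271-72918570, plus strand) are shown because 3 of the called genes of the pathway carry repeated CCAAT boxes there. Windows were searched on both strands for CCAAT and for TCACNCCAC, a form of the sterol regulatory element. CCAAT was in 37% of all windows and TCACNCCAC in 1.12%. The 9 called cholesterol genes with a window had 11 windows, of which 8, from 8 genes, held CCAAT and 1, that of Hmgcs1, held TCACNCCAC. Capitals mark CCAAT, its reverse complement ATTGG, or TCACCCCAC.
Hmgcs1: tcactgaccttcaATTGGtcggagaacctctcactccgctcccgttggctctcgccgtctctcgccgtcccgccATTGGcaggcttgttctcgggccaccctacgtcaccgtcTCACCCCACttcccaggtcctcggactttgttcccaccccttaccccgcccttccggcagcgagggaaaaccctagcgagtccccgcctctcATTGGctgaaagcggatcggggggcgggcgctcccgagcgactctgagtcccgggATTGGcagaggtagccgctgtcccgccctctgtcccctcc
Msmo1: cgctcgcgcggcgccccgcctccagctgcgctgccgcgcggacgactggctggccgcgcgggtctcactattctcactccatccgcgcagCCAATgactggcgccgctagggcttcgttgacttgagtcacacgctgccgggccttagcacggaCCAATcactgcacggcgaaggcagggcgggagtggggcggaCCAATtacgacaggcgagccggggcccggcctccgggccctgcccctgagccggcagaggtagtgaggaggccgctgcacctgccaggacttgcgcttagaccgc
Nsdhl: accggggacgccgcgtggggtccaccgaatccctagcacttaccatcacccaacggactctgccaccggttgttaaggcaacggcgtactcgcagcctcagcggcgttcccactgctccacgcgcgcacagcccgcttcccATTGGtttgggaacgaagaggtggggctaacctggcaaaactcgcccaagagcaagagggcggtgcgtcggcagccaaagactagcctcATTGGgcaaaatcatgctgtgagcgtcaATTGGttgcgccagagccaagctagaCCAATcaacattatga
Hmgcs1 and Nsdhl each hold 4 CCAAT boxes and Msmo1 holds 3. Beside these letters, the RNA of the 3 genes differed by -0.52, -0.32 and -0.41 on the log2 scale, and Msmo1 and Nsdhl were not called in the fit on these 12 libraries alone.

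Microglia markers were lower for some members and level for others. Of 14 tested, 6 fell (P2ry13, P2ry12, Fcrls, Olfml3, Cx3cr1 and Gpr34) and 0 rose, where 1.58% of all genes fell, with a median of -0.26. Only 3 were called without CAC replicate 6 or without NCAC replicate 5. P2ry13, a purinergic receptor of resting microglia, held 7.46 to 15.3 TPM in CAC and 16.1, 18.6, 17.7, 18.6 and 19.4 TPM in NCAC, with no overlap (log2 difference -0.74, SE 0.12, limma adjusted p = 7.85e-05). P2ry12, by which microglia sense nucleotides, ran from 27.2 through 40.7 to 50.4 TPM (the highest in replicate 3) against 52.7, 57.1, 54.5, 45.4 and 54.7 TPM, with overlap (log2 difference -0.46, SE 0.11, limma adjusted p = 0.0049). It was not called in the fit on these 12 libraries alone. Tmem119, a defining marker of microglia, held 20.97 to 35.8 TPM in CAC and 26.6 to 32.3 TPM in NCAC (log2 difference -0.04, adjusted p = 0.909), and Csf1r, the receptor for a microglial growth factor, was not called. The list summed to 347 to 501 TPM in CAC and 451 to 514 TPM in NCAC.

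Ighm, the heavy chain of immunoglobulin M, was the most lowered immune gene named. It ran from 16.1 through 21.7 to 39.7 TPM in CAC (the highest in replicate 3) and was 57.4, 55.2, 43.02, 63.1 and 69.2 TPM in NCAC, with no overlap (log2 difference -1.32, SE 0.23, limma adjusted p = 0.000199). Mock replicate 5 held 256 TPM and the other mock libraries 54.9 to 65.7 TPM. Interferon response genes (22 tested) and MHC genes (14 tested) had 0 calls by limma, with medians of 0.16 for each list, and 2 and 0 of them had an unadjusted p under 0.05. Without CAC replicate 3 the medians were 0.047 for interferon response and 0.048 for MHC genes, against 0.061 over all genes.

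Myelin genes fell in part. Of 14 mature oligodendrocyte genes, 6 fell (among them Opalin, Ugt8a, Aspa, Gjb1 and Cnp) and 0 rose, where 1.58% of all genes fell, with a median of -0.34. Leaving out 1 library gave 4 to 7. Opalin, at chr19:41061710-41077113 on the minus strand (GENCODE vM21, GRCm38), is a membrane glycoprotein found in oligodendrocytes. It ran from 6.38 through 8.87 to 20.6 TPM in CAC (the highest in replicate 3) and was 28.7, 26.2, 23.2, 26.05 and 24.55 TPM in NCAC. Every CAC library lay below every NCAC library, and the log2 difference was -1.30 (SE 0.21, limma adjusted p = 4.12e-05), or -1.46 without CAC replicate 3.

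Ugt8a, which makes the galactolipids of myelin, ran from 13.6 through 17.9 to 33.4 TPM in CAC (the highest in replicate 3) and was 40.7, 40.1, 24.3, 28.4 and 40.9 TPM in NCAC (log2 difference -0.72, SE 0.17, limma adjusted p = 0.00673). The groups overlapped, and Ugt8a was not called in the fit on these 12 libraries alone. Mbp, a main myelin protein, held 559 to 835 TPM in CAC and 736 to 880 TPM in NCAC and was not called (-0.21, adjusted p = 0.213). Pllp, a myelin lipid raft protein outside the list, differed by -0.73 (limma adjusted p = 0.000206), and Enpp6, a marker of newly formed oligodendrocytes, by -0.59 (adjusted p = 0.00362).

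Among other fallen genes, Tnnc1 and Serpinb1a were separate or nearly so between the groups. Tnnc1, a troponin C also found in cortex, held 5.42 to 8.86 TPM in CAC and 16.2, 13.8, 11.8, 17.4 and 15.2 TPM in NCAC, with no overlap (log2 difference -0.97, SE 0.15, limma adjusted p = 2.65e-05). Serpinb1a, an inhibitor of neutrophil proteases, held 3.96 to 13.02 TPM in CAC (the highest in replicate 3) and 16.99, 16.8, 13.7, 12.2 and 14.7 TPM in NCAC (log2 difference -1.04, SE 0.15, limma adjusted p = 9.84e-06). Only CAC replicate 3 reached the NCAC range.

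Neuronal lists held few calls, apart from the neuropeptide list. There were 0 calls by limma among 14 excitatory neuron genes (median 0.08), 18 synaptic genes (0.02), 17 neurotransmitter receptor subunits (0.07) and 15 ion channels (0.08). Before adjustment 3, 2, 1 and 2 of them had a p under 0.05, and after TMM scaling 1 synaptic gene was called lower. Sst, somatostatin of inhibitory neurons, held 546 to 947 TPM in CAC and 987, 860, 910, 1143 and 933 TPM in NCAC, and was called (-0.38, SE 0.10, adjusted p = 0.00984), but not without NCAC replicate 4. With Cort, a related peptide (-0.61), it made up the 2 fallen of 13 neuropeptide genes, where 1.58% of all genes fell. For 3 of the 13 the groups did not overlap, with CAC lower, against 0.476% of all genes tested. Without NCAC replicate 4, 0 neuropeptide genes were called. Sst was also the 1 fallen of 13 inhibitory neuron genes. Nptx2, a synaptic pentraxin that follows activity, differed by -0.61 (limma adjusted p = 0.00628). All 18 immediate early genes lay above 0, as did 67.2% of all genes, with a median of 0.46 and 0 were called by limma (2 had an unadjusted p under 0.05), and their library means spread from -0.61 to 0.85 within NCAC alone.

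Some fasting-response genes rose, while lists of energy production held few calls. In the FOXO and fasting-response list 8 of 16 tested members rose (Pink1, Sesn1, Klf15, Cited2, Bcl6, Irs2, Foxo3 and Pik3ip1) and 0 fell, where 4.25% of all genes rose, with a median of 0.24. After TMM scaling 5 rose, and without CAC replicate 3 the count was 10. Klf15, a glucocorticoid-induced factor of fasting metabolism, held 24.4 (CAC replicate 3) to 46.02 TPM in CAC and 22.9, 20.3, 27.98, 21.9 and 20.2 TPM in NCAC, with overlap (log2 difference 0.65, SE 0.13, limma adjusted p = 0.00088). In the lipid droplet and lipolysis list Plin4, Pnpla2 (0.74) and Lipe (0.27) rose of 10 tested, against the same 4.25%, the latter 2 encoding triglyceride and hormone-sensitive lipase. Neither lipase was called in the fit on these 12 libraries alone. Proteasome (31 tested) and unfolded protein response genes (17 tested) had 0 calls by limma, with 1 and 4 under an unadjusted p of 0.05. Fatty acid oxidation had 0 calls by limma among 17 (5 unadjusted) and a median of -0.02. Respiratory chain genes held 2 fallen of 79, mitochondrially encoded genes 1 fallen of 13, glycolysis 2 risen and 1 fallen of 19, and autophagy 1 risen of 17. In that order 2.53%, 7.69%, 15.8% and 5.88% of members were called, against 5.84% of all genes. Before adjustment 5, 8, 6 and 5 of them had a p under 0.05 by limma. Of the 13 mitochondrially encoded genes 12 lay below 0, with a median of -0.15.

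**Figure D3:**
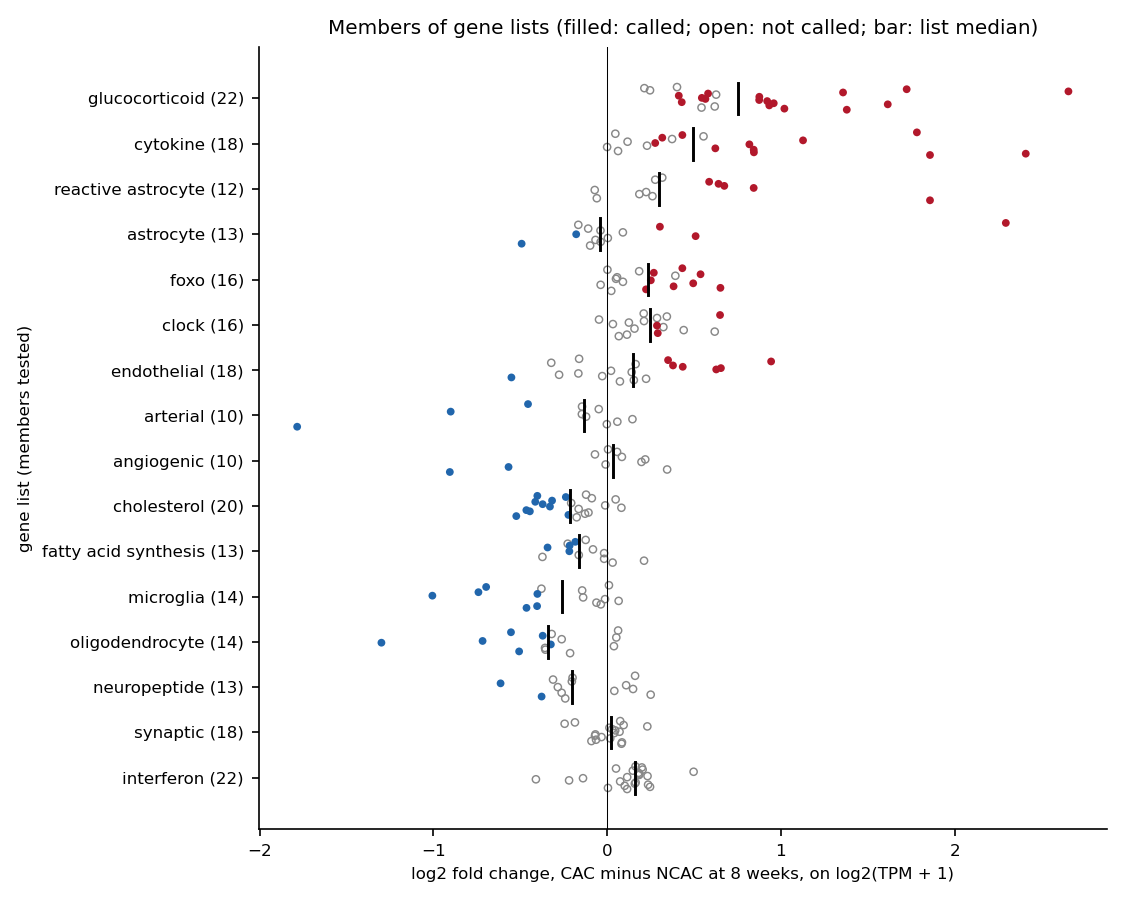
Each point is a tested member of a gene list and the horizontal axis is its log2 fold change, CAC minus NCAC at 8 weeks, on log2(TPM + 1); filled points were called, open points were not, and the bar is the list median. The glucocorticoid list has its median at 0.75 and the oligodendrocyte list at -0.34, while synaptic genes stay near 0.

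**Figure D4:**
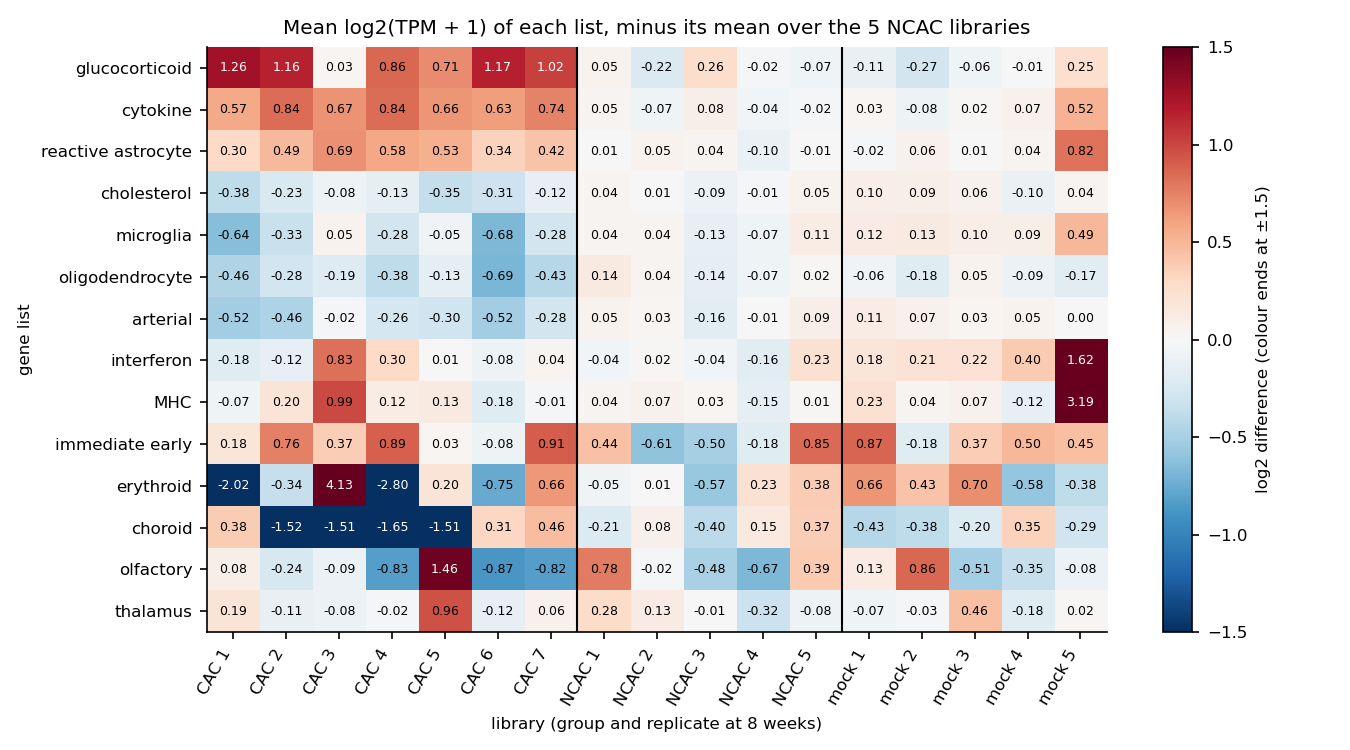
Columns are the 17 libraries at 8 weeks and rows are gene lists; each cell is the list's mean log2(TPM + 1) minus its mean over the 5 NCAC libraries, with colour ending at ±1.5. CAC replicate 3 is at 0.03 for the glucocorticoid list and at 0.67 for the cytokine list, and carries the high erythroid value of 4.13. The cytokine row includes Lcn2, Ch25h and Il1b, and the reactive astrocyte row Lcn2, which passed the filter only through CAC groups.

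Within the CAC group, Fkbp5 was set against 5 genes across the 7 libraries (5 relations, exact two-sided permutation tests, Benjamini-Hochberg adjusted over the 5). Fkbp5 against Lcn2 gave Pearson r = -0.927 (p = 0.00417, adjusted exact permutation p = 0.0104) and Spearman rho = -0.75 (exact permutation p = 0.0663). Against Gkn3 it gave r = -0.922 (p = 0.00417, adjusted exact permutation p = 0.0104) and rho = -0.786 (exact permutation p = 0.048). Against P2ry12 it gave r = -0.823 (p = 0.0165, adjusted exact permutation p = 0.0274) and rho = -0.893 (exact permutation p = 0.0123). Hmgcs1 (r = -0.758, adjusted exact permutation p = 0.0536, rho = -0.643, exact permutation p = 0.139) and Lrg1 (r = 0.72, adjusted exact permutation p = 0.106, rho = 0, exact permutation p = 1) did not pass. Over the 5 rank correlations no adjusted p passed, the lowest being 0.0615 by exact permutation. Without CAC replicate 3 no relation passed, the lowest adjusted exact permutation p being 0.111 (n = 6). There r was -0.68 for Lcn2, -0.303 for Hmgcs1 and -0.211 for Lrg1, but -0.838 for Gkn3 and -0.869 for P2ry12. P2ry12 also missed the threshold without CAC replicate 1, 2 or 6 (adjusted exact permutation p = 0.103, 0.0648 and 0.106). Without the 2 libraries farthest from the median of Fkbp5, CAC replicates 3 and 5, r was -0.727, -0.612, -0.97, -0.803 and -0.674 in that order, and none passed the adjusted test (n = 5).

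The mock-injected group places these values beside a brain without tumour cells. NCAC and mock neocortex at 8 weeks differed in 0 of 15115 genes by limma, and 743 had an unadjusted p under 0.05. CAC against mock gave 1292 calls (8.55%), 734 higher and 558 lower. This comparison shares the CAC libraries with the one above. The mock means were 0.501 ± 0.249 TPM for Lcn2, 2.28 ± 1.69 TPM for Lrg1, 16.2 ± 2.22 TPM for Fkbp5, 24.5 ± 3.57 TPM for Opalin and 263 ± 22.1 TPM for Hmgcs1 (SD, n = 5). The corresponding NCAC means were 0.567 ± 0.276, 1.85 ± 0.61, 17.2 ± 4.36, 25.7 ± 2.06 and 247 ± 15.9 TPM (SD, n = 5). For Ly6a the mock libraries held 13.6 to 64.98 TPM and CAC against mock was not called (adjusted p = 0.0809). For the cytokine list 9 of 18 tested members rose against mock, for the glucocorticoid list 18 of 22, and in the cholesterol list 12 of 20 fell. The cytokine count includes Lcn2, Ch25h and Il1b among the members tested, which passed the filter on low levels only through CAC groups. Against mock 4.86% of all genes rose and 3.69% fell. Mock replicate 5 had the cytokine list 0.52 above the NCAC mean and the other mock libraries lay from -0.08 to 0.07. Without mock replicate 5, CAC against mock gave 880 calls, 502 higher and 378 lower. NCAC against mock then gave 0 calls, with 349 genes under an unadjusted p of 0.05 by limma. The part of mock replicate 5 in the list counts was not tested.

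CAC and NCAC also differed at 6 weeks, in libraries separate from those of 8 weeks. There 1397 genes were called (9.24%), 1163 higher (7.69%) and 234 lower (1.55%), or 283 higher and 440 lower after TMM scaling. Leaving out 1 of the 6-week libraries gave 353 (without CAC replicate 1) to 2495 (without CAC replicate 2). Lcn2 was 2.27 ± 1.12 TPM in CAC and 0.503 ± 0.255 TPM in NCAC at 6 weeks, Fkbp5 41.2 ± 12.9 and 18.1 ± 3.88 TPM, Gkn3 1.61 ± 0.439 and 7.99 ± 1.51 TPM, and Opalin 11.6 ± 4.09 and 27.1 ± 3.44 TPM (SD, n = 5 each). The change of the CAC to NCAC difference from 6 to 8 weeks was called for 0 genes in limma (263 were under 0.05 before adjustment). Of the glucocorticoid list 12 of 22 members rose at 6 weeks, of the cytokine list 11 of 18, and of the oligodendrocyte list 8 of 14 fell. The cytokine members tested again include Lcn2, Ch25h and Il1b, which passed the filter only through CAC groups. In the cholesterol list 5 of 20 fell at 6 weeks (median -0.10) and 10 at 8 weeks (median -0.22), and in the microglia list 3 of 14 (median -0.14) and 6 (median -0.26).

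At 2 weeks the Lcn2 means were close, while by their means Fkbp5 was lower and Opalin higher in CAC, opposite to 8 weeks. The difference at 2 weeks was not tested on its own, and it enters the change from 2 to 8 weeks. Lcn2 was 0.301 ± 0.0794 TPM in CAC and 0.278 ± 0.184 TPM in NCAC, Fkbp5 15.04 ± 3.53 and 19.8 ± 4.17 TPM, Opalin 30.1 ± 5.70 and 23.6 ± 4.86 TPM, and Gkn3 6.23 ± 1.97 and 11.1 ± 3.26 TPM (SD, n = 5 each). The change of the CAC to NCAC difference from 2 to 8 weeks was called for 76 genes (0.503%), 55 higher and 21 lower. It was 391 without CAC replicate 3 of week 8 and 24 without CAC replicate 5 of week 2. Lrg1 changed by 2.01, Fkbp5 by 1.76 and Opalin by -1.64 (log2, limma adjusted p = 0.00641, 0.00493 and 0.0044), and Lcn2, tested only through CAC groups, by 1.82. Gkn3, lower in CAC already at 2 weeks by its means, changed by -1.02 and was not called (adjusted p = 0.37). The libraries of 2 weeks carry another lane than those of 8 weeks, so week and lane cannot be told apart within a group. The difference between CAC and NCAC is taken within a week.

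**Figure D5:**
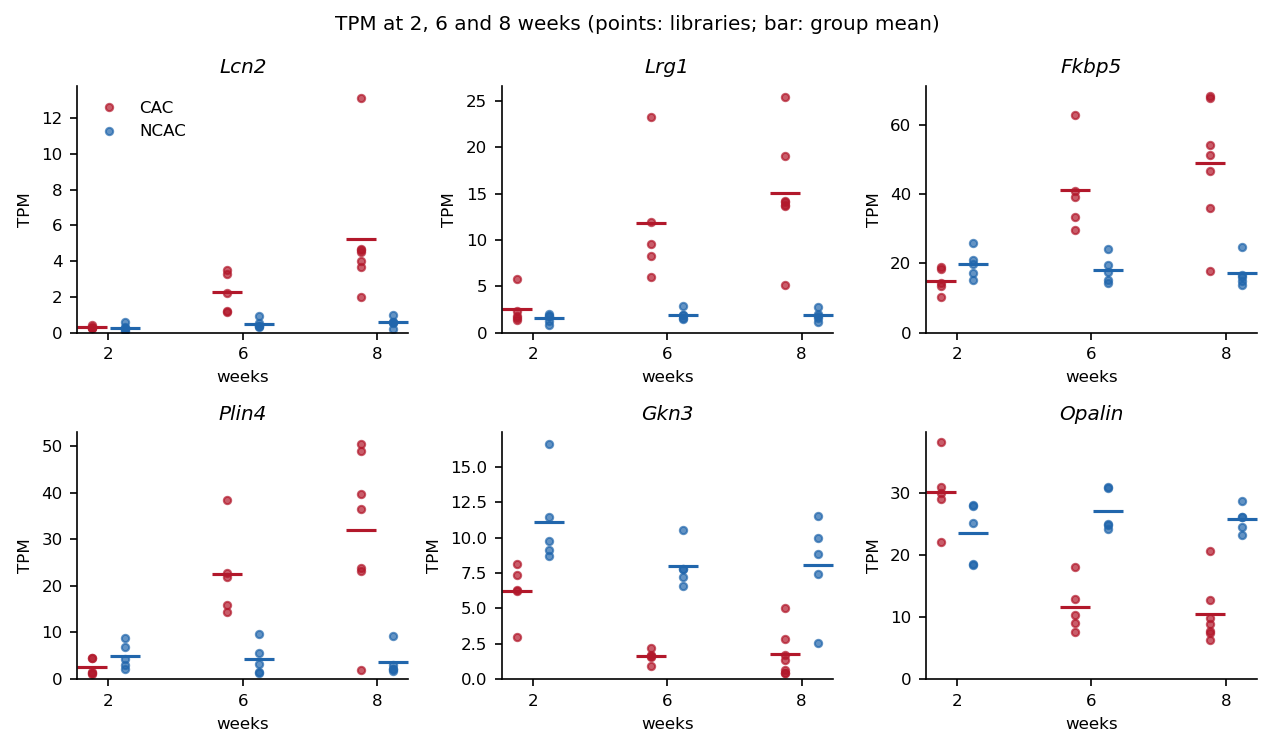
TPM of 6 genes at 2, 6 and 8 weeks, drawn at evenly spaced positions; points are libraries and bars are group means (n = 5 for each group and week except CAC at 8 weeks, n = 7). CAC and NCAC overlap at 2 weeks for Lcn2, Fkbp5 and Opalin, and are apart at 6 weeks for all 6 genes.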

How the data were processed

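The authors deposited TPM per gene for 62 bulk neocortex libraries. The submitters' processing notes name mm10, while no aligner or quantifier is named there (not given in the sources used here). The table has 47643 rows, of which 22257 are 0 in every library, and 27 symbols that were dates or repeated were kept out of the named genes. One symbol each matched GENCODE vM21 for 45059 rows. Each library sums to 1000000 TPM, and the steps between low values put the 12 libraries at an estimated 46.7 to 50.1 M reads (85.5 to 86.9% of values from 0.5 to 10 reads were whole within 0.05).

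A gene was tested where its mean reached 1 TPM in any of the 12 groups, on log2(TPM + 1) with limma 3.58.1 in R 4.3.3 (trended moderation, 1 fit of 12 groups, 50 residual degrees of freedom), after tests on simulated data. Groups came from the labels. Named genes are the 15 risen and 15 fallen genes of largest change, up to 4 lowest-p members of each list, and all called members of 6 lists (glucocorticoid, cytokine, cholesterol, microglia, oligodendrocyte and reactive astrocyte). Vwf and the uncalled list members were named after their values were seen. Members and lists were chosen with earlier results of these data known. Alternatives changed the pseudocount, filter, scaling, moderation, weights, replicate block, groups fitted and libraries included. A few genes are not reported here.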

Additional observations from a re-analysis of the deposited data

Results flagged for a closer look

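Among 66 named genes, 132 groups of libraries were checked for 1 value far from the rest, and 12 (9.09%) held one. Chance gives about 1 in 20 for independent checks. The genes share the same libraries, so the checks are not independent and the share cannot be set against that rate. CAC replicate 3 was the far library for Lcn2 (13.16 TPM), Ighm (39.71 TPM), Fcrls (6.578 TPM), Alpl (7.686 TPM) and Dhcr7 (26.59 TPM), as the highest of 7, and for Cp (6.518 TPM) as the lowest. NCAC replicate 3 was the far library for Plin4 (9.267 TPM), Phyhd1 (11.18 TPM) and Fkbp5 (24.71 TPM), as the highest of 5. The others were Nfkbia in NCAC replicate 2 (22.48 TPM, lowest), Osmr in NCAC replicate 4 (0.6909 TPM, lowest) and Cebpd in CAC replicate 2 (13.04 TPM, highest).

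The difference between CAC and NCAC changed from 2 to 8 weeks, by limma, for 24 of the named genes. Over all genes it changed for 76 of 15115 (0.503%). Most genes were named for their difference at 8 weeks, which enters this change, so the count of 24 is a description. On the log2 scale it grew upward for Scgb3a1 (2.659), Tmem252 (2.293), Rtp1 (2.282), Lrg1 (2.006), Sult1a1 (1.859), Map3k6 (1.839), Lcn2 (1.822), Fkbp5 (1.761), Ch25h (1.693), Cebpd (1.501), Phyhd1 (1.295), Pdk4 (1.202), Ddit4 (1.198), Mt2 (0.938), Il1r1 (0.837), Osmr (0.728), Mt1 (0.726) and Il6ra (0.616). It grew downward for Opalin (-1.640), Tnnc1 (-1.053), Serpinb1a (-1.029), Pllp (-0.911), Alpl (-0.884) and P2ry13 (-0.784). Scgb3a1, Lcn2 and Ch25h passed the filter on low levels only through CAC groups.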

How the results depend on the processing

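Of 127 called genes named, 52 were called under every alternative and 0 changed direction. For the count of CAC against NCAC at 8 weeks (882), sample quality weights gave 2518, the replicate block 268, only the groups compared 296, leaving out CAC replicates 3 and 5 together 1914, and leaving out 1 library 422 to 1660. For CAC against mock (1292), weights gave 3425, the block 506 and leaving out 1 library 749 to 1833. For CAC against NCAC at 6 weeks (1397), no filter on level gave 904, TMM scaling 723, weights 5078, only the groups compared 645 and leaving out 1 library 353 to 2495. For the change from 2 to 8 weeks (76), no filter gave 41, weights 815, the block 16 and leaving out 1 library 24 to 391. NCAC against mock and the change from 6 to 8 weeks stayed at 0 in each alternative run. The cause of these shifts was not tested.

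Same-numbered libraries of CAC and NCAC correlated by -0.14, -0.11, -0.25, -0.11 and 0.26 in their deviations, and 1 of 5 correlated best with its own number, so the numbers do not pair them. With the replicate block 60 of the 127 genes were not called, and with only the groups compared 56.

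Relations of Fkbp5 across CAC libraries turned, lost or gained their call as follows. Without the 2 libraries farthest from its median, r was -0.674 for Lrg1, -0.727 for Lcn2, -0.970 for P2ry12 and -0.612 for Gkn3. With 1 CAC library left out, r ranged from -0.949 to -0.680 for Lcn2, -0.211 to 0.795 for Lrg1 and -0.875 to -0.303 for Hmgcs1. For P2ry12 it ranged from -0.870 to -0.793 and for Gkn3 from -0.974 to -0.838. TMM scaling gave -0.840 for Hmgcs1, past the threshold. Hmgcs1 also passed without CAC replicate 5 (adjusted exact permutation p = 0.0185). By rank, P2ry12 passed after TMM scaling (rho = -0.929, adjusted exact permutation p = 0.0337). Gkn3 passed by rank without CAC replicate 2 (adjusted exact permutation p = 0.0139). Depth limits the genes near 1 TPM most, and TPM keeps no counts from which to give their counting error.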

Other observations

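Iron genes moved in both directions between CAC and NCAC at 8 weeks. Of 14 tested, 2 rose (Cp, the ferroxidase ceruloplasmin, and Heph, hephaestin) and 2 fell (Slc40a1, the iron exporter ferroportin, and Steap3), where 4.25% of all genes rose and 1.58% fell. Cp held 6.52 (CAC replicate 3) to 11.1 TPM in CAC and 7.01, 6.78, 5.15, 4.12 and 5.59 TPM in NCAC, overlapping only through CAC replicate 3 (log2 difference 0.67, SE 0.12, limma adjusted p = 0.00035). Slc40a1 held 2.89 to 4.31 TPM in CAC and 5.33, 6.28, 5.61, 4.55 and 6.92 TPM in NCAC, with no overlap (log2 difference -0.49, SE 0.10, limma adjusted p = 0.00213).

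Of 16 circadian clock genes 15 lay above 0, as did 67.2% of all genes, and 3 rose (Cry2, Npas2 and Bhlhe40), where 4.25% of all genes did, with 2 to 5 called when 1 library was left out. Bhlhe40, a repressor within the clock, held 94.8 to 172 TPM in CAC and 71.4 to 89.8 TPM in NCAC, with no overlap (log2 difference 0.65, SE 0.17, limma adjusted p = 0.0119). The hour of dissection is not in the labels. Crym, which binds thyroid hormone in the cytosol, held 60.3 to 88.5 TPM in CAC and 36.6 to 56.1 TPM in NCAC, also with no overlap (log2 difference 0.53, SE 0.14, limma adjusted p = 0.0119), a call lost without NCAC replicate 5.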
